A study of Mus musculus with 8 samples.

Results

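The genes described here encode the signalling machinery of the transforming growth factor beta (TGF-beta) superfamily: ligands, receptors, SMAD transcription factors, ID target genes, secreted antagonists and the proteins that store latent TGF-beta. They were taken as a list of 36 gene symbols, each represented by the transcript cluster of the array that the platform annotation gives to that symbol alone. All 36 had exactly 1 such cluster, among 23410 clusters with at least 1 gene symbol. The levels were measured in hand-dissected corpus callosum of male wild-type C57BL/6 mice, 8 weeks old per the labels, after perfusion with saline buffer. The cuprizone group (4 arrays) had 1 week of 0.25% cuprizone, a copper chelator that kills oligodendrocytes when fed to mice, and the control group (4 arrays) had normal diet. The labels call the arrays of a group biological replicates, and how many mice each array held is not given in the sources used here. Both groups are labelled wild-type, with no allele or agent named beside the diet.

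Ligands of this family bind pairs of type I and type II receptor kinases, which phosphorylate receptor-regulated SMADs. These join SMAD4 and enter the nucleus, where SMAD6 and SMAD7 are among the induced genes and act as feedback inhibitors. TGF-beta and activin act mainly through SMAD2 and SMAD3, and the bone morphogenetic proteins (BMPs) through SMAD1, SMAD5 and SMAD9. In mouse brain TGF-beta maintains the resting identity of microglia, and BMPs hold back the maturation of oligodendrocytes through ID proteins. SMAD7 and the transcription factor ZEB2, which induces it, are needed for normal myelination in mice.

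On the whole table the median log2 level per array lay between 7.44 and 7.49, and arrays of a group correlated at 0.9952 to 0.9971. The first principal component, with 52.2% of the variance, separated the groups, and on each side replicate 2 stood nearest to the other group (8.73 in cuprizone and -13.20 in control). The tissue label was checked against cell type markers. The myelin gene Mog had log2 levels of 6.93 to 7.86 on cuprizone arrays and 11.01 to 11.29 on control arrays. The choroid plexus gene Ttr differed between arrays of the same group, at 9.84, 12.19, 9.91 and 12.11 on cuprizone replicates 1 to 4 and 10.23, 12.32, 9.56 and 12.58 on control replicates 1 to 4. Neuron markers were high in both groups. Their mean levels ran from the 66.0th percentile of tested clusters (Slc17a6) to the 99.8th (Snap25, 12.84 in cuprizone and 12.82 in control). How much neighbouring grey matter the dissected tissue held was not tested. In whole tissue, fewer cells of a type and less RNA per cell cannot be told apart.

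After 1 week of cuprizone a change was called in few genes of the core pathway. Both TGF-beta receptor kinases, Tgfbr1 and Tgfbr2, rose, as did the BMP-regulated Smad5 and the target gene Id3, and the inhibitory Smad7 fell. At a limma adjusted p under 0.05, 4 of the 36 genes were higher (11.1%), where 4.71% of all tested clusters were. The count was 2 without control replicate 2, 3 or 4, without cuprizone replicate 1, 3 or 4 and in an ordinary F test without moderated variances. In the other direction 1 of 36 was lower (2.78%), against 3.52% of all tested clusters. In 8 of the 36 genes (22.2%) all arrays of one group lay above all of the other, as in 15.3% of all tested clusters. None of these 5 changes reached 1.5-fold. The median log2 fold change, cuprizone minus control throughout, was -0.02 over the 36 genes and -0.01 over all tested clusters. The median size of the change was 0.09 and the median spread within groups 0.10 in log2 units. Over all tested clusters these were 0.08 and 0.10.

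**Figure D1:**
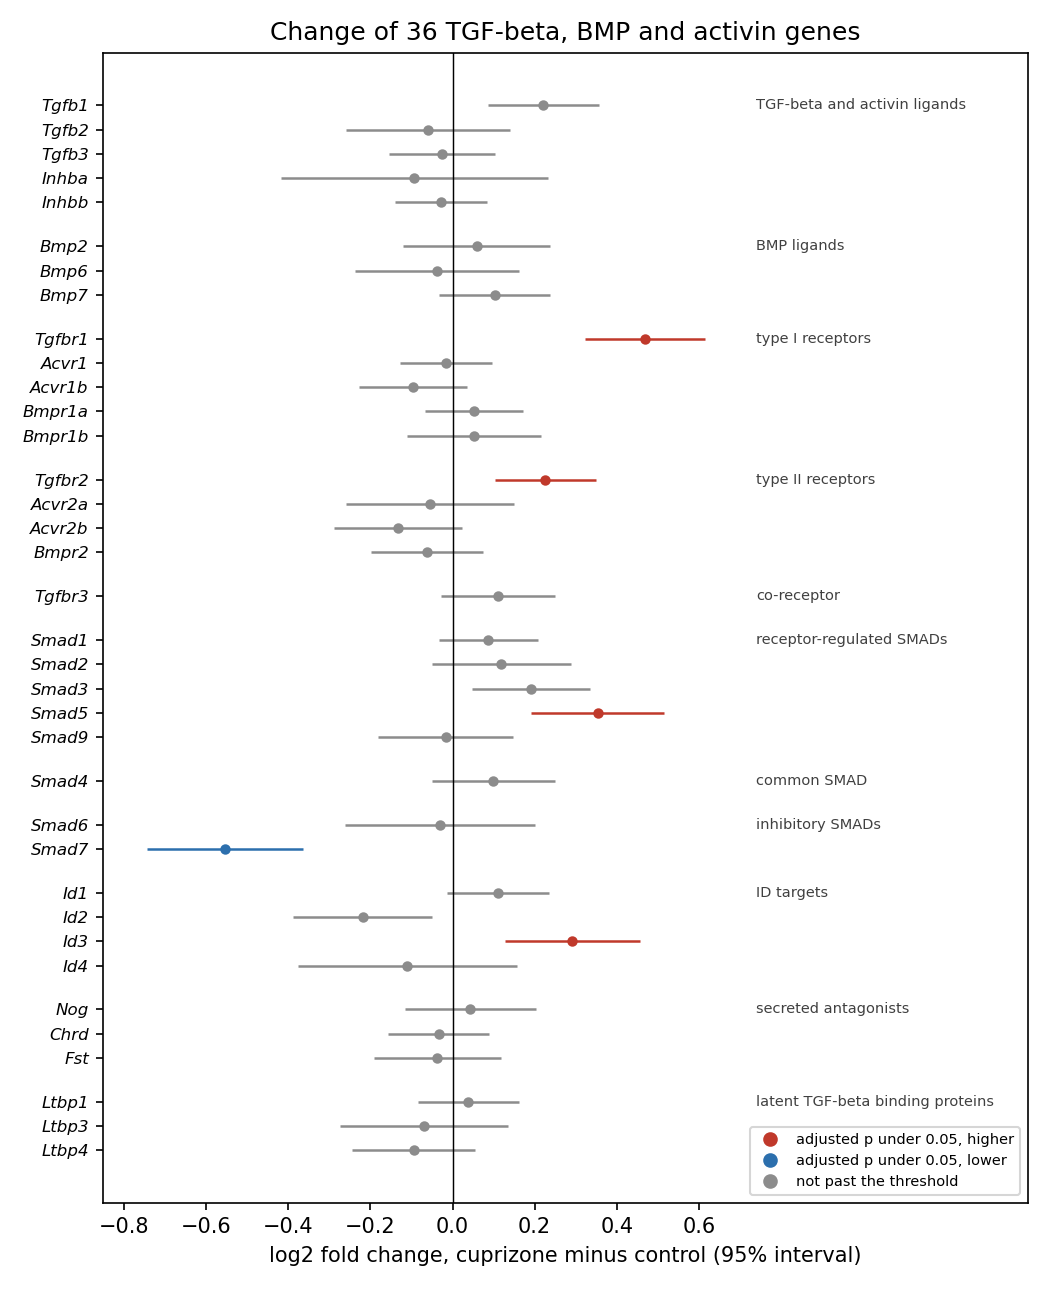
Log2 fold change of each of the 36 genes, cuprizone minus control, in role groups from top to bottom, with 95% intervals from limma. Tgfbr1, Tgfbr2, Smad5 and Id3 lie to the right of 0 in red and Smad7 to the left in blue, and the grey genes did not pass an adjusted p of 0.05.

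Among the 5 TGF-beta and activin ligands no gene passed the limma threshold, and 1 had an unadjusted p under 0.05, as 20.8% of all tested clusters did. That was Tgfb1. This isoform is one that microglia make and need. Its log2 levels were 7.23, 7.29, 7.26 and 7.25 on cuprizone replicates 1 to 4 and 7.13, 7.13, 6.95 and 6.94 on control replicates 1 to 4. Every cuprizone array stood above every control array, and control replicates 1 and 2 stood above 3 and 4. The log2 fold change was 0.22 ± 0.06 (SE, n = 4 each, limma adjusted p = 0.0512). With clusters up to the 25th percentile of the level left out of the test, the adjusted p was 0.0324, and it lay between 0.0324 and 0.137 in the 18 alternatives it entered.

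The other 2 TGF-beta isoforms had small differences, Tgfb2 at -0.06 ± 0.09 and Tgfb3 at -0.03 ± 0.06. Inhba, whose product forms activin A, had log2 levels of 7.68, 7.78, 7.68 and 8.43 on cuprizone arrays and 7.91, 8.13, 7.91 and 8.00 on control arrays. Cuprizone replicate 4 was thus the highest of all 8 arrays, and the other 3 cuprizone arrays lay below every control. Over all arrays the difference was -0.09 ± 0.15, with a limma adjusted p of 0.803. Without cuprizone replicate 4 it was -0.27, with an adjusted p of 0.0486. Inhbb, the subunit of activin B, stood within 7.12 to 7.25 on all arrays.

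None of the 3 BMP ligands passed in limma, and 0 had an unadjusted p under 0.05. Bmp2 had a log2 fold change of 0.06 ± 0.08, Bmp6 of -0.04 ± 0.09 and Bmp7 of 0.10 ± 0.06. Bmp7, which can turn progenitors towards astrocytes in rodent cultures, had levels of 7.82, 7.86, 7.89 and 7.80 on cuprizone arrays and 7.62, 7.73, 7.75 and 7.85 on control arrays, and control replicate 4 overlapped the cuprizone arrays. Bmp4, named in the wider list of the pathway below and the ligand best known for blocking oligodendrocyte maturation, had 7.93, 8.09, 7.88 and 8.04 in cuprizone and 7.66, 7.88, 7.66 and 7.88 in control, a difference of 0.22 ± 0.08 that did not pass (adjusted p = 0.117).

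Of the type I receptors Tgfbr1 was the gene that rose. This kinase carries TGF-beta signals to SMAD2 and SMAD3. Its log2 levels were 8.67, 8.72, 8.86 and 8.86 on cuprizone replicates 1 to 4 and 8.42, 8.23, 8.31 and 8.28 on control replicates 1 to 4. The groups were apart by more than the range of either. The rise was 1.38-fold (0.47 ± 0.07, limma adjusted p = 0.0012), and it passed in all 19 alternatives run, with log2 fold changes of 0.44 to 0.51. The activin receptor Acvr1b stood at -0.10 ± 0.06, and the BMP receptors Acvr1, Bmpr1a and Bmpr1b at -0.02 ± 0.05, 0.05 ± 0.05 and 0.05 ± 0.07.

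Of the type II receptors Tgfbr2, which binds TGF-beta and activates TGFBR1, rose. It had 8.24, 8.17, 8.25 and 8.26 on cuprizone arrays and 8.02, 8.05, 7.90 and 8.05 on control arrays, without overlap. The rise was small, 1.17-fold (0.23 ± 0.06, limma adjusted p = 0.0297). The call was lost in 9 of 19 alternatives. The adjusted p was 0.0648, 0.0507, 0.0798 and 0.0515 without control replicate 1, 2, 3 or 4, and 0.0703, 0.0747 and 0.0690 without cuprizone replicate 1, 3 or 4, while the log2 fold change stayed at 0.19 to 0.26. The activin receptors Acvr2a and Acvr2b stood at -0.05 ± 0.09 and -0.13 ± 0.07, and Bmpr2, the BMP receptor, at -0.06 ± 0.06. Tgfbr3, betaglycan, a co-receptor that presents TGF-beta to TGFBR2, had 0.11 ± 0.06 (adjusted p = 0.369).

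**Figure D2:**
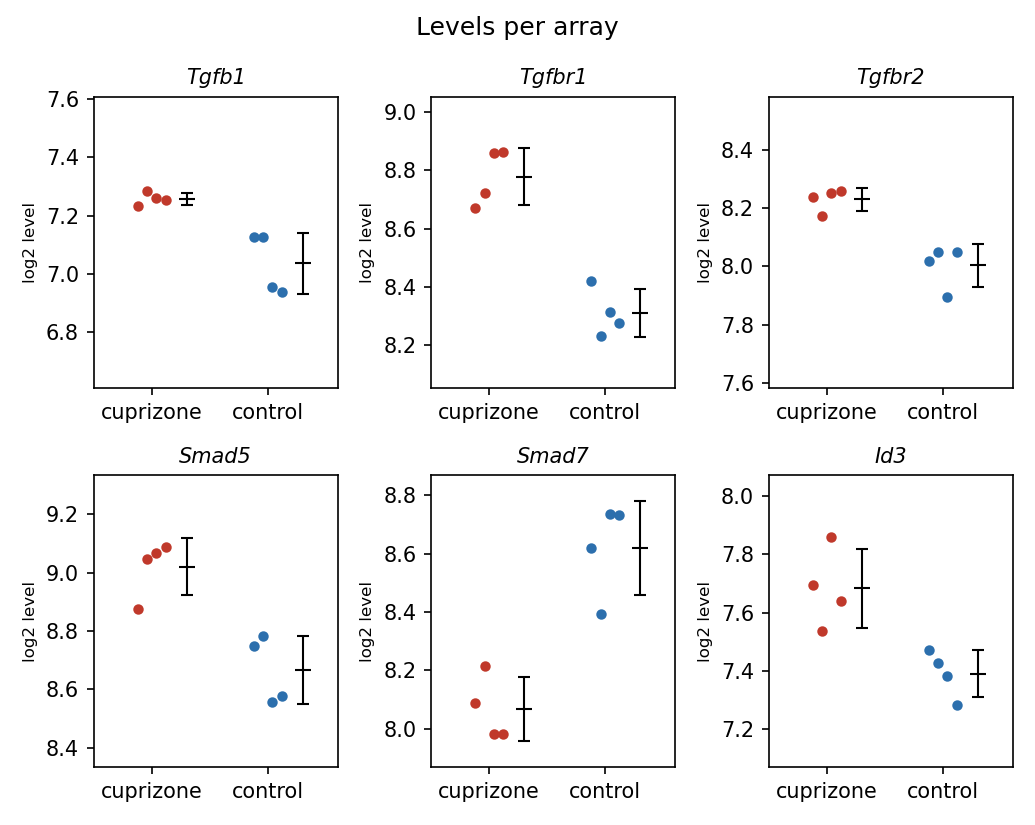
Log2 level on each array for Tgfb1 and the 5 genes past the threshold, cuprizone in red on the left and control in blue on the right of each panel, with the mean and SD over 4 arrays as black marks. The vertical axes span 1 log2 unit each and do not start at 0, and in all 6 panels the groups do not overlap, with Smad7 as the one in which cuprizone is lower.

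Among the receptor-regulated SMADs, Smad5 of the BMP branch rose. Its log2 levels were 8.88, 9.05, 9.07 and 9.09 in cuprizone and 8.75, 8.78, 8.56 and 8.58 in control. As for Tgfb1, control replicates 1 and 2 stood above 3 and 4, and all lay below the cuprizone arrays. The rise was 1.28-fold (0.35 ± 0.07, limma adjusted p = 0.0119). It did not pass an ordinary F test without moderated variances (adjusted p = 0.0595) and passed in the other 18 alternatives. The paralogues that share its branch did not pass, Smad1 at 0.09 ± 0.05 and Smad9 at -0.02 ± 0.07. Whether Smad5 changed more than they did was not tested.

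In the TGF-beta and activin branch Smad3 had 9.15, 9.26, 9.32 and 9.38 on cuprizone arrays and 9.09, 9.18 and 9.07 on control replicates 1 to 3, with control replicate 4 lower still. Control replicate 2 lay above cuprizone replicate 1, and the difference of 0.19 ± 0.07 did not pass (adjusted p = 0.111). Smad2 stood at 0.12 ± 0.08, with cuprizone replicate 3 highest at 8.69 and the other 7 arrays between 8.30 and 8.46. Smad4, the partner of all receptor-regulated SMADs, stood at 0.10 ± 0.07.

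The largest change among the 36 genes was that of Smad7, which blocks type I receptors and recruits ubiquitin ligases to them. Its log2 levels were 8.09, 8.21, 7.98 and 7.98 on cuprizone replicates 1 to 4 and 8.62, 8.39, 8.74 and 8.73 on control replicates 1 to 4. Control replicate 2 was the lowest control and cuprizone replicate 2 the highest cuprizone array, and the groups still did not overlap. Replicate 2 on each side thus stood nearest to the other group, as on the first principal component. Smad7 averaged 8.07 ± 0.11 in cuprizone and 8.62 ± 0.16 in control (SD, n = 4 each), 1.47-fold lower (-0.55 ± 0.09 SE, limma adjusted p = 0.00221). It passed in all 19 alternatives, with log2 fold changes of -0.68 to -0.52. Smad6, the inhibitor directed mainly at BMP receptors, had -0.03 ± 0.10 (adjusted p = 0.917), with levels of 6.39 to 6.83 in cuprizone and 6.48 to 6.77 in control.

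The ID genes encode helix-loop-helix proteins without a DNA-binding region, which bind and hold back other helix-loop-helix factors, and BMPs induce them in many cells. They did not move one way. Id3 had 7.69, 7.54, 7.86 and 7.64 on cuprizone arrays and 7.47, 7.43, 7.38 and 7.28 on control arrays, 1.22-fold higher (0.29 ± 0.07, limma adjusted p = 0.0355). The call was lost in 8 of 19 alternatives. The adjusted p was 0.0658, 0.0813 and 0.102 without control replicate 2, 3 or 4, and 0.0798, 0.0839 and 0.0590 without cuprizone replicate 1, 3 or 4. The log2 fold change was 0.23 to 0.35.

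Id1 stood without overlap at 7.83, 7.81, 7.95 and 7.82 in cuprizone, against 7.68, 7.77, 7.79 and 7.73 in control, but by only 0.11 ± 0.06 (adjusted p = 0.303). Id2, which keeps oligodendrocyte progenitors immature when raised in rodent cultures, had 11.21, 11.15, 11.19 and 11.10 in cuprizone and 11.26, 11.30, 11.61 and 11.36 in control. Every cuprizone array lay below every control array, and the difference of -0.22 ± 0.08 did not pass (adjusted p = 0.121). Id4 varied most among the 4 genes within both groups, from 9.40 to 9.88 in cuprizone and from 9.52 to 10.04 in control, and stood at -0.11 ± 0.12.

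The secreted antagonists noggin and chordin, which bind BMPs, and follistatin, which binds activins, had differences of 0.04 ± 0.07 (Nog), -0.03 ± 0.06 (Chrd) and -0.04 ± 0.07 (Fst). The latent TGF-beta binding proteins, which tie the latent complex to the matrix, had 0.04 ± 0.06 (Ltbp1), -0.07 ± 0.09 (Ltbp3) and -0.09 ± 0.07 (Ltbp4). None of these 6 passed at an unadjusted p of 0.05 in limma. Over the 31 genes that did not pass the adjusted threshold, the 95% intervals ran from -0.42 (Inhba) to 0.36 (Tgfb1), so in all 31 they left out a change of 1.5-fold (0.58 in log2 units) either way. These intervals were not adjusted for the number of genes, and quantile normalization can compress true folds.

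**Figure D3:**
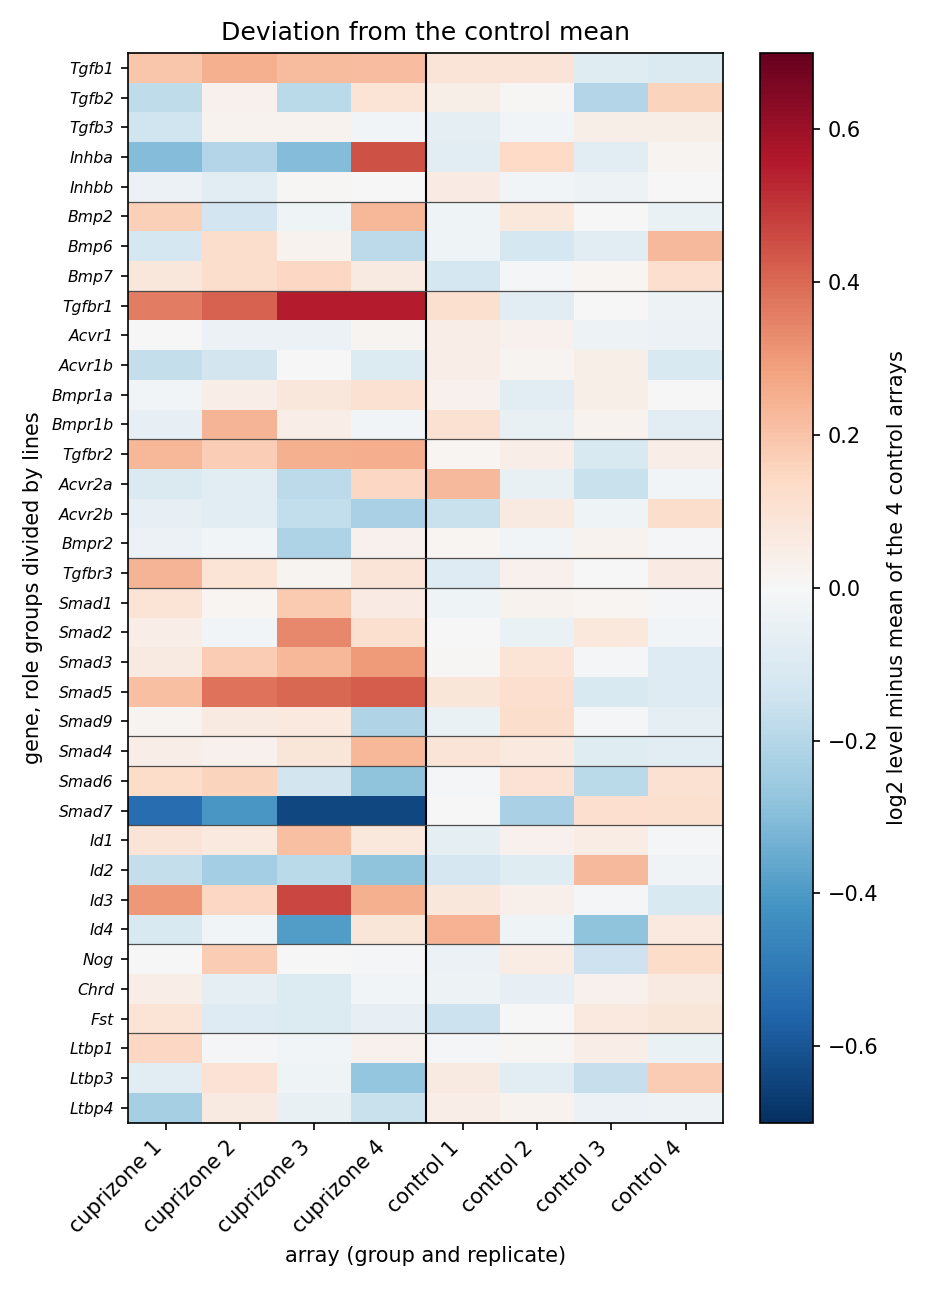
Log2 level of each of the 36 genes on each array minus the mean of the 4 control arrays, with cuprizone arrays on the left and control arrays on the right of the vertical line. Tgfbr1 and Smad7 are the most deeply coloured on the cuprizone side, and Inhba on cuprizone replicate 4 and Id4 on cuprizone replicate 3 stand out as single arrays.

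Of the genes past the threshold, the promoters of the 4 that rose are shown. That of Smad7, which fell, was not available. The sequences are the 250 bases before the start site farthest upstream in RefSeq, build GRCm38.p6, read 5′ to 3′ on the gene's strand. Capitals mark 2 motifs, CAGAC (or GTCTG on the other strand), a SMAD box with its preceding base, and the palindrome GGCGCC, a GC-rich element that BMP-activated SMADs bind. The palindrome GTCTAGAC was also searched, and no marked motifs overlapped.
Tgfbr1, chr4:47352972-47353221, plus strand: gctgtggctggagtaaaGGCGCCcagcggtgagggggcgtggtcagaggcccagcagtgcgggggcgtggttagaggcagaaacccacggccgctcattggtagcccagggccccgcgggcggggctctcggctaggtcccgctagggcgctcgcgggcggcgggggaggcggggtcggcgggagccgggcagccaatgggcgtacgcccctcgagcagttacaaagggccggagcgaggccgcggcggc
Tgfbr2, chr9:116175364-116175613, minus strand: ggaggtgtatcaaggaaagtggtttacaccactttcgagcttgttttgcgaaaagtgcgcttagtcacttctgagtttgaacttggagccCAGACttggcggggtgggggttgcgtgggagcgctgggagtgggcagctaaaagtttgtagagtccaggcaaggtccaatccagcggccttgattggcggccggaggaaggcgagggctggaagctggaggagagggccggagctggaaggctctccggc
Smad5, chr13:56702760-56703009, plus strand: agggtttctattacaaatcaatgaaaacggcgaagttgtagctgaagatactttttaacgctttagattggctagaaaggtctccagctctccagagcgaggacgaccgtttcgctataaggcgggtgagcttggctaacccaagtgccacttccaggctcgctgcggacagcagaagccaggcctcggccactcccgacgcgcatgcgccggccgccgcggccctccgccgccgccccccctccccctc
Id3, chr4:136143572-136143821, plus strand: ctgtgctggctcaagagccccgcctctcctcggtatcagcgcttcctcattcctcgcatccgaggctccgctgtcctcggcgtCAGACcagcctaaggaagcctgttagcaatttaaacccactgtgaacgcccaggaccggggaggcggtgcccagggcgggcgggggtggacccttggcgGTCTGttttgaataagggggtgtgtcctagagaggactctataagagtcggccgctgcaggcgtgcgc
Id3 held CAGAC 167 bases and GTCTG 68 bases before the start, Tgfbr2 held CAGAC at 160 and Tgfbr1 held GGCGCC at 233, each counted to the first base of the motif. Smad5 held none of the 3 motifs in this window, and GTCTAGAC was in none of the 4. Among all 27025 RefSeq promoters, 42.2% held CAGAC or GTCTG, 9.57% held GGCGCC and 0.174% held GTCTAGAC. Of the 26 promoters found for the 36 genes 34.6%, 26.9% and 0% held them. Those of Smad7, Id1, Smad2, Smad4, Tgfb3, Tgfbr3, Bmp2, Bmp7, Nog and Fst were not among the 26 and were not searched. These 26 had a median GC content of 67.4%, against 52.0% over all promoters.

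The wider pathway was described by a list of 120 other symbols, of which 113 had a cluster: further ligands, receptors, secreted modulators, activators of latent TGF-beta, intracellular regulators and genes that TGF-beta or BMPs can induce. Arkadia and Rnf111 in this list name the same gene, which was measured as Rnf111. Of the 113, 8 were higher (7.08%) and 2 lower (1.77%), against 4.71% and 3.52% of all tested clusters. The median log2 fold change was -0.02. Several of these genes moved far more than any of the 36, and 5 of them at least 2-fold. None of the 24 measured ligands of this list and none of its 19 secreted modulators passed in limma, while 3 of the ligands and 4 of the modulators had an unadjusted p under 0.05, against 20.8% of all tested clusters.

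Genes of matrix proteins and of a matrix protease were among those that rose most. Tnc, the matrix glycoprotein tenascin C, which TGF-beta and many other signals induce, had 9.68, 9.28, 9.78 and 9.69 on cuprizone arrays and 6.94, 7.18, 6.69 and 6.92 on control arrays, 6.39-fold higher (2.68 ± 0.12, limma adjusted p = 9.72e-07). Adamts1, a secreted metalloproteinase, had 9.47, 9.36, 9.35 and 9.53 in cuprizone and 7.63, 7.86, 7.59 and 7.52 in control, 3.43-fold higher (1.78 ± 0.08). Tgfbi, a matrix protein named for its induction by TGF-beta, had 8.58 to 9.06 in cuprizone and 7.61, 7.80, 7.52 and 7.67 in control, 2.29-fold higher (1.19 ± 0.11). Cuprizone replicate 2 was the lowest cuprizone array and control replicate 2 the highest control array for Tnc and Tgfbi. The same held for Tgif1, Cd109 and Thbs1, described below, but not for Adamts1, Fn1 or Ccn1.

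Fn1, fibronectin, rose 1.48-fold (0.57 ± 0.05), with 9.46, 9.42, 9.47 and 9.39 in cuprizone and 8.87, 8.85, 8.94 and 8.82 in control. Ccn1, a matricellular protein, rose 1.39-fold (0.48 ± 0.10, adjusted p = 0.0103), with 9.25 on cuprizone replicate 1, 8.81 to 8.86 on the other cuprizone arrays and 8.34 to 8.58 on control arrays. It did not pass the ordinary F test (adjusted p = 0.0752) and passed in the other 18 alternatives. These 5 are the genes called among 22 measured targets, where 4.71% of all tested clusters were called higher and 3.52% lower. The list of targets was chosen with earlier results of these data known. Ccn2, Pmepa1 and Klf10, which TGF-beta induces in many cells, stood at -0.03 ± 0.10, -0.02 ± 0.07 and 0.05 ± 0.10, and the collagen genes Col1a1 and Col1a2 at -0.21 ± 0.10 and -0.12 ± 0.10. Other signals also induce the targets named, and the part of TGF-beta in their rise was not tested.

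Tgif1, Cd109 and Thbs1, whose products can alter the activity of the pathway, rose as well. Tgif1, a homeodomain corepressor of SMAD2 complexes, had 8.41, 8.02, 8.62 and 8.15 in cuprizone and 6.89, 7.04, 6.48 and 6.49 in control, 2.98-fold higher (1.58 ± 0.15, limma adjusted p = 0.000101). Its paralogue Tgif2 stood at -0.13 ± 0.07. Cd109, a membrane-anchored co-receptor that dampens TGF-beta signalling in human skin cells, had 7.41, 6.92, 7.52 and 7.32 in cuprizone and 6.15, 6.23, 6.05 and 5.79 in control, 2.37-fold higher (1.24 ± 0.13, adjusted p = 0.000159). Thbs1, thrombospondin, which can release active TGF-beta from its latent complex, had 8.01, 7.51, 7.93 and 7.81 in cuprizone and 6.83, 7.10, 6.89 and 6.94 in control, 1.83-fold higher (0.87 ± 0.10). Of the other measured activators of this list none passed, among them the integrin subunits Itgav (-0.06 ± 0.06) and Itgb8 (0.16 ± 0.07) and the microglial anchor Nrros (-0.04 ± 0.09).

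**Figure D4:**
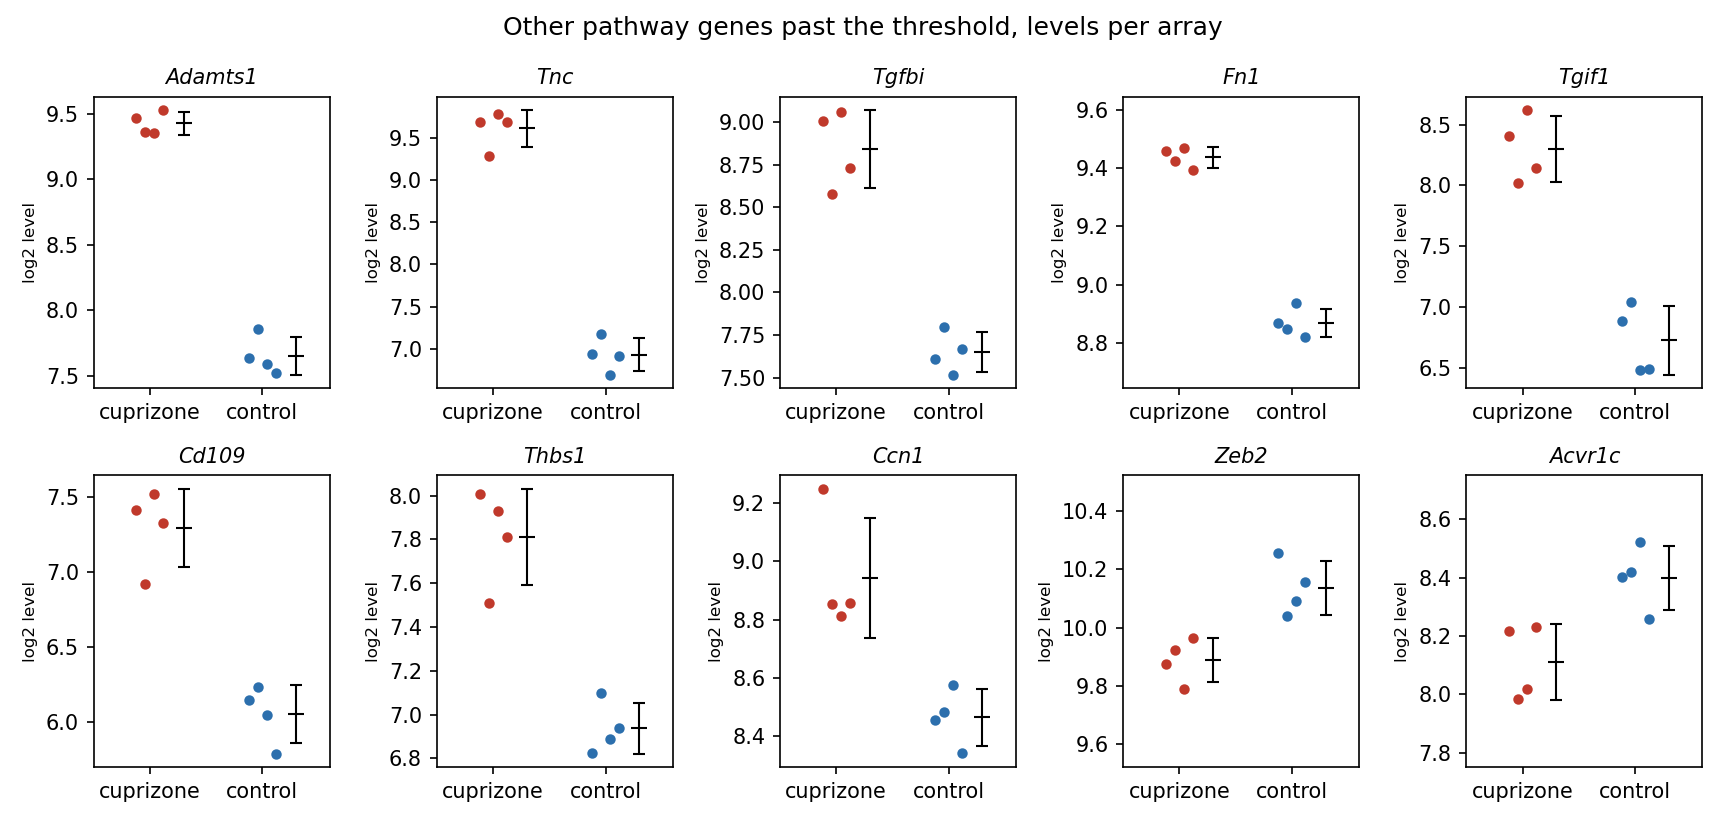
Log2 level on each array for the 10 genes of the wider list past the threshold, in order of p, with cuprizone in red on the left and control in blue on the right and the mean and SD over 4 arrays in black. The vertical axes differ between panels and do not start at 0. The groups do not overlap in any of the 10, and Zeb2 and Acvr1c are the ones lower in cuprizone.

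The 2 genes that fell were Zeb2 and Acvr1c. Zeb2 had 9.88, 9.92, 9.79 and 9.96 on cuprizone arrays and 10.25, 10.04, 10.09 and 10.16 on control arrays (-0.25 ± 0.06, limma adjusted p = 0.0382). Acvr1c, a type I receptor for nodal and some activins, had 8.22, 7.98, 8.02 and 8.23 in cuprizone and 8.40, 8.42, 8.52 and 8.26 in control (-0.29 ± 0.08, adjusted p = 0.0481). The call of Zeb2 was lost in 10 of 19 alternatives, among them those without control replicate 1, 3 or 4 (adjusted p = 0.103, 0.0632 and 0.0958) or cuprizone replicate 1, 2 or 3 (0.0865, 0.0580 and 0.105) and that with the choroid plexus covariate described below (0.0624). That of Acvr1c was lost in 9 of 19, among them those without control replicate 1, 2 or 3 (0.102, 0.109 and 0.126) or cuprizone replicate 2 or 3 (0.109 and 0.130).

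Markers of other cell types moved beside these genes. All 9 measured oligodendrocyte markers fell, with a median of -2.15, and their mean per array lay 2.06 to 2.99 log2 units below the control mean in cuprizone (-2.99 on replicate 1, -2.06 on replicate 2), against -0.16 to 0.09 in control. None of the 7 progenitor markers passed in limma (2 had an unadjusted p under 0.05, where 20.8% of all tested clusters did), at a median of 0.04. Of 8 microglia markers 5 rose and none fell, with a median of 0.37, and their mean lay 0.24 to 0.53 above the control mean in cuprizone and between -0.07 and 0.03 in control. Csf1r was 1.53-fold higher. The resting-state markers differed: Tmem119 rose (0.28 ± 0.07, limma adjusted p = 0.0268) and Cx3cr1 stood at 0.27 ± 0.08 (adjusted p = 0.0677). Siglech stood at 0.05 ± 0.06 and P2ry12 at -0.06 ± 0.09. Of 8 astrocyte markers 4 rose and 2 fell, with Gfap at 0.96 ± 0.06 and Slc1a2 at -0.60 ± 0.07. The share of these cell type shifts in the changes of Smad7, Tgfbr1, Tgfbr2, Smad5 and Id3 was not tested.

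None of 8 endothelial markers passed in limma (4 had an unadjusted p under 0.05, against the same 20.8%), at a median of -0.15, and their array means were lower in cuprizone, at -0.19 to -0.07, against -0.02 to 0.03 in control. Of 8 mural cell markers 1 rose, Tagln (0.44 ± 0.08), and of 8 fibroblast markers none passed (3 had an unadjusted p under 0.05). Pdgfra, 1 of these 3, was also in the progenitor list and was counted there too. The markers of choroid plexus and ependyma spanned -0.56 to 0.27 in cuprizone and -0.55 to 0.57 in control, with 1 of 10 lower (Rarres2, -0.34 ± 0.07). With their mean as a covariate, added after this was seen, the same 4 of the 36 genes were higher and Smad7 lower. Of 7 blood monocyte, neutrophil and lymphocyte markers and 10 neuron markers none passed, at medians of -0.01 and -0.04, and 0 and 2 of them had an unadjusted p under 0.05. Of the blood cell markers, Ccr2 had levels of 3.58 to 3.82 in cuprizone and 3.69 to 3.82 in control, near the lowest values of the arrays.

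**Figure D5:**
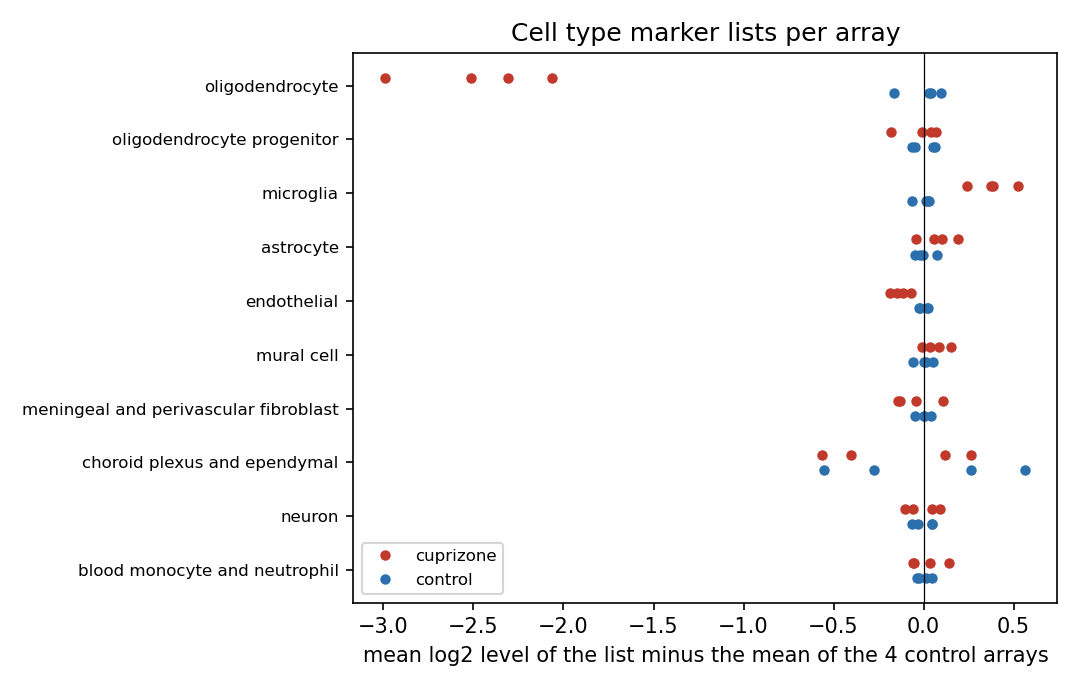
Mean log2 level of each cell type marker list on each array minus its mean over the 4 control arrays, with cuprizone in red above control in blue. Oligodendrocyte markers lie 2.06 to 2.99 below the control mean and microglia markers 0.24 to 0.53 above it in cuprizone, and the choroid plexus list is spread in both groups.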

How the data were processed

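Total RNA, 150 ng per sample, was amplified, biotin-labelled and hybridised to Affymetrix Mouse Gene 1.0 ST arrays, per the labels' protocols. The deposited values are log2 levels per transcript cluster, and the submitters' processing notes name Affymetrix Expression Console, RMA and Transcriptome Analysis Console without a role for each. RMA as published normalizes arrays to 1 distribution, so a shift shared by most genes cannot be seen. Without scanner files or scan dates, batches and brightness over background could not be examined.

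Of 28944 clusters, 21789 had 1 gene symbol in the platform annotation, 1621 several and 5534 none. All 36 genes matched a RefSeq gene of the same symbol by Entrez identifier. The 23410 clusters with a symbol were tested with limma (3.58.1, R 4.3.3), cuprizone against control, at default settings, two-sided, with p-values adjusted by the Benjamini-Hochberg method over all of them and a threshold of 0.05. Errors after ± are SEs from that model for log2 fold changes and SDs for mean levels. The number of arrays limits the precision.

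The genes, the wider list and the marker lists were chosen with earlier results of these data known. All 36 genes were to be named, with the genes of the wider list past the threshold. The other genes of the wider list and the single marker genes were picked after their values were seen. Replicates 1 to 4 of each group share numbers in the labels, but same-numbered arrays deviated from their group means with correlations of -0.186, -0.025, 0.210 and -0.065, so the numbers were not taken to pair them. Alternatives were a replicate block, leaving out arrays, other variance models, scalings, filters, array weights and 1 covariate. The steps were tested on simulated data.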

Additional observations from a re-analysis of the deposited data

Results flagged for a closer look

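Single arrays stood far from the other 3 of their group, by Dixon's criterion, in 5 of 92 sets of 4 arrays examined, over the 36 genes and the 10 called genes of the wider list. Chance gives about 1 in 20. Inhba, the activin A subunit, was at 8.43 on cuprizone replicate 4 and at 7.68 to 7.78 on the other cuprizone arrays. Nog was at 7.10 on cuprizone replicate 2, against 6.90 to 6.92. Id1 was at 7.95 on cuprizone replicate 3, against 7.81 to 7.83. Ccn1 was at 9.25 on cuprizone replicate 1, against 8.81 to 8.86. For the activin receptor Acvr1b it was control replicate 4, with 9.27, while its 3 companions had 9.40 to 9.42.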

How the results depend on the processing

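Tgfbr1 and Smad7 passed the threshold in all 19 alternatives run, and Smad5 in all but the ordinary F test. The count of the 36 genes that were higher, 4 as reported, ranged from 2 to 4 when 1 array was left out, and was 2 with the replicate block and 2 with the ordinary F test. With clusters up to the 25th percentile of the level left out it was 5, Tgfb1 being added. Tgfbr2 (adjusted p = 0.0794) and Id3 (0.0616) were not called with the replicate block. Leaving out both replicate 2 arrays gave Tgfbr2 an adjusted p of 0.0621, and the F test gave Smad5 0.0595 and Id3 0.103. The count of lower genes, 1 as reported, ranged from 1 to 2, with Inhba added without cuprizone replicate 4. In the wider list the count of lower genes, 2 as reported, ranged from 0 to 2 without 1 array. It was 0 with the replicate block, 0 without both replicate 2 arrays, 1 with the F test and 1 when clusters without a name were tested too. It was 3 with quantile normalization again, with arrays centred on their medians and with either filter on the level. The count of higher genes in the wider list ranged from 6 to 9 over all alternatives. The 6 came from the filter at the median level, which left Cd109 and Thbs1 out of the test. Both passed in all 18 alternatives they entered. Over all clusters, 1102 were called higher as reported, 795 to 1122 without 1 array and 632 by the F test, and 823 lower as reported and 609 to 741 without 1 array. No gene's called direction reversed in 863 comparisons of a gene under an alternative, and 38 of them lost and 2 gained a call. The 863 include the 31 of the 36 genes that were not called as reported and so had no call to lose. Some of those 31 changed sign, as Smad6 did, which kept its sign in 14 of 18 alternatives. Centring the arrays on their medians moved the median change of all clusters to -0.03 and Tgfbr2 to 0.21 (adjusted p = 0.0486). Each of the 36 genes had 1 cluster, so no other cluster could be tried. How far each cluster's signal stood above background was not known.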
